A study of Oryctolagus cuniculus with 6 samples.

Results

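miR-200c and miR-141 are the epithelial microRNAs (miRNAs, small RNAs that silence transcripts they pair with) of one genomic locus, and they were described here in extracellular vesicles from rabbit seminal plasma. Their rows were chosen by name, whatever their values, as the 3p and 5p strands of both hairpins, miR-200c-3p, miR-141-3p, miR-200c-5p and miR-141-5p. These were 4 of the 577 mature miRNAs listed, and all 4 were found and passed the filter on low values, as 4 of 234 miRNAs tested. Such vesicles are particles with a membrane, shed by cells; each replicate used 2.5 mL of seminal plasma. The bucks were sexually mature California x New Zealand white rabbits, aged 10 to 12 months, of which 14 were sampled for 8 ejaculates each over 1 month. The Sub-fertile group holds 3 libraries and the Fertile group 3 libraries, labelled as biological replicates, and 3 males of low and 3 of high semen quality had been taken forward for them. No agent or allele separates the groups, and the labels tie no library to a named buck, nor do they say whether a replicate pooled males.

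The miR-200 family is known for keeping cells epithelial: its members repress the transcription factors ZEB1 and ZEB2, which otherwise switch off E-cadherin, the adhesion protein of epithelial sheets, and the ZEB factors repress the miRNA genes in turn. In mammals studied so far the family sits at a locus with miR-200b, miR-200a and miR-429 and at another with miR-200c and miR-141. A hairpin is cut into a duplex, of which mostly a single strand is kept and the other is degraded. For both hairpins the 3p strand is the known guide strand, and the 5p strand the usual passenger. miR-200c-3p and miR-141-3p belong to different seed groups of the family, so their predicted targets overlap only in part. In the rabbit gene table of RefSeq (assembly mOryCun1.1, used for gene order alone), MIR141 and MIR200C are direct neighbours between PHB2 and PTPN6. miR-200a, miR-200b and miR-429 had no row among the 577 mature miRNAs listed, so they could not be analysed here.

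The libraries held 129387, 242078 and 636929 counts in Sub-fertile replicates 1, 2 and 3, and 772619, 536026 and 453675 counts in Fertile replicates 1, 2 and 3. Levels are given as scaled CPM, the deposited values, which are counts per 1000000 divided by a scaling factor per library. Across the tested miRNAs, log2 profiles of library pairs correlated at r = 0.916 to 0.959 within Sub-fertile and at 0.975 to 0.981 within Fertile. These r are across miRNAs, which are not replicates. Sub-fertile replicate 1 was the shallowest library and the one whose removal changed the number of calls most. With it, 8 of 234 miRNAs passed (3.42%, limma adjusted p under 0.05), and without it 39 passed (16.7%).

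Both 3p strands were among the most abundant miRNAs of every library. miR-200c-3p, a repressor of ZEB1 and ZEB2, stood at 40745, 42802 and 58948 scaled CPM in Sub-fertile replicates 1 to 3, against 46828, 47989 and 39978 in Fertile replicates 1 to 3. The groups overlapped: Sub-fertile replicate 3 was above all Fertile libraries, while Sub-fertile replicates 1 and 2 lay inside the Fertile range. It was the seventh miRNA by mean level over the 6 libraries and ranked between place 5 and place 10 in each. It took 4.90% ± 0.511 of all counts in Sub-fertile and 4.32% ± 0.445 in Fertile (SD, n = 3 each).

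miR-141-3p, the partner strand from the same locus, stood at 35812, 40102 and 63542 scaled CPM in Sub-fertile replicates 1 to 3, against 44999, 36773 and 44061 in Fertile replicates 1 to 3. Again Sub-fertile replicate 3 was the highest of all libraries, and Sub-fertile replicate 1 was the lowest. Its mean level placed it next after miR-200c-3p, at place 8, and its place in single libraries ran from 4 to 10. Its share was 4.74% ± 0.880 of all counts in Sub-fertile and 4.03% ± 0.445 in Fertile (SD, n = 3 each). Every read counts 1 mature miRNA, so no correction for length was made between the strands.

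Together the 3p strands held 9.48%, 8.38% and 11.1% of all counts in Sub-fertile replicates 1 to 3, against 8.92%, 8.12% and 7.99% in Fertile replicates 1 to 3. The widest 95% interval (Wilson, counting error only) was 9.32% to 9.64%, in Sub-fertile replicate 1, so the highest and lowest libraries differed by more than counting error. The mean share was 9.64% ± 1.34 in Sub-fertile and 8.35% ± 0.499 in Fertile (SD, n = 3 each). The difference of 1.29 percentage points did not exceed the spread between replicates (two-sided exact permutation p = 0.2, where 0.1 is the smallest p that 3 against 3 libraries allow). In vesicles from a whole fluid, more vesicles from a cell type and more of a miRNA per vesicle cannot be told apart.

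The 5p strands were present at low level. miR-141-5p stood at 81.2, 151.1 and 130.5 scaled CPM in Sub-fertile replicates 1 to 3, against 126.6, 186.9 and 139.0 in Fertile replicates 1 to 3. These levels rested on 13, 37 and 75 counts in Sub-fertile replicates and on 95, 96 and 60 in Fertile ones. Sub-fertile replicate 1 was the lowest and Fertile replicate 2 the highest, and the groups overlapped. miR-200c-5p stood at 68.7, 81.7 and 69.6 scaled CPM in Sub-fertile replicates 1 to 3, against 72.0, 103.2 and 78.8 in Fertile replicates 1 to 3. It rested on 11, 20 and 40 counts in Sub-fertile and on 54, 53 and 34 in Fertile ones. The lowest of these, 11 counts in Sub-fertile replicate 1, has an exact 95% Poisson interval of 34.3 to 122.9 scaled CPM, which contains the level in each of the other libraries. At this depth Sub-fertile replicate 1 could thus not be told from the other libraries by miR-200c-5p. The intervals of Sub-fertile replicate 3 (49.7 to 94.8) and Fertile replicate 1 (54.1 to 93.9) lay below the 103.2 of Fertile replicate 2. The interval of Fertile replicate 2 itself, 77.3 to 134.9, overlapped both.

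**Figure D1:**
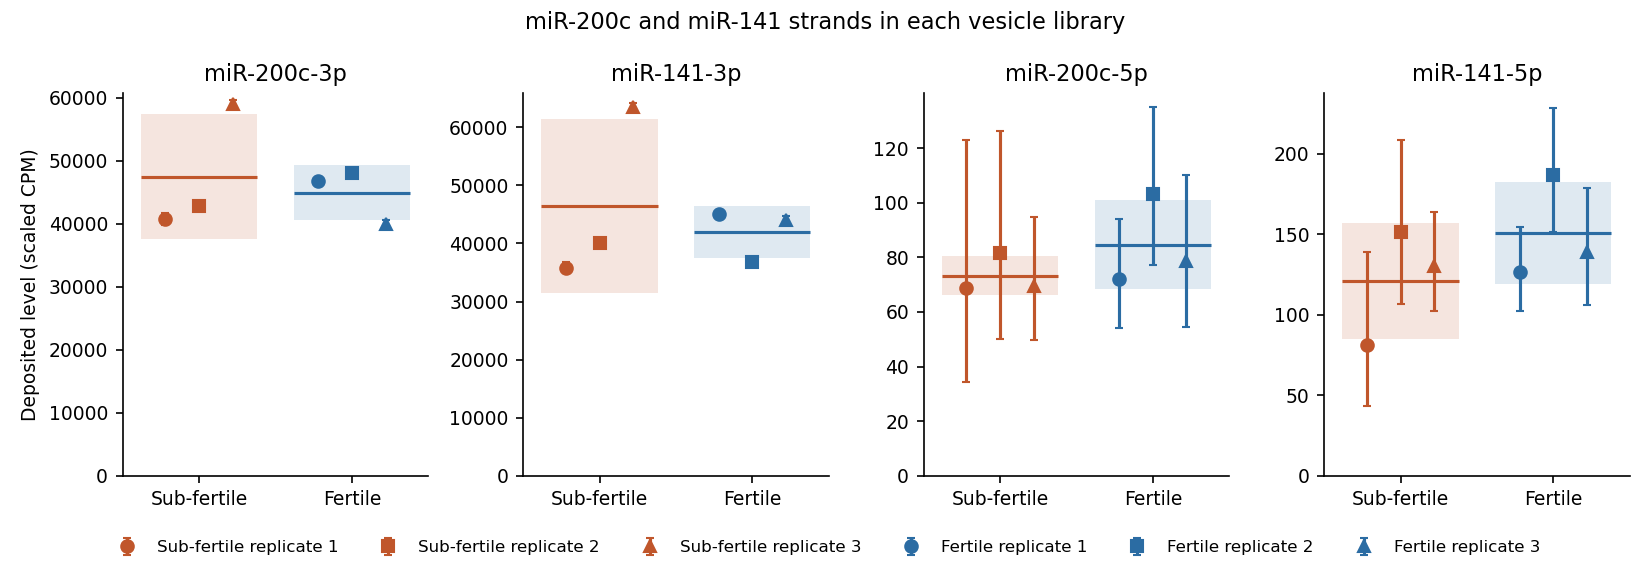
Deposited level in scaled CPM (linear axis from 0) of the 4 strands, with Sub-fertile libraries on the left and Fertile libraries on the right of each panel. Points are libraries with exact 95% Poisson intervals on their counts, lines are group means and shaded bands 1 SD (n = 3 each); in both 3p panels Sub-fertile replicate 3 is the highest point, at 58948 and 63542, and in all 4 panels the groups overlap.

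None of the 4 strands passed the test between males of low and high semen quality. The log2 change of miR-200c-3p, Sub-fertile over Fertile on the log2(scaled CPM + 1) scale, was 0.06 (SE 0.19, limma adjusted p = 0.876). For miR-141-3p it was 0.11 (SE 0.24, adjusted p = 0.846), for miR-200c-5p -0.19 (SE 0.32, adjusted p = 0.813) and for miR-141-5p -0.34 (SE 0.34, adjusted p = 0.610). So 0 of 4 members passed where 3.42% of the 234 tested miRNAs did, 0.855% being higher and 2.56% lower in Sub-fertile. At an unadjusted p under 0.05 the members again gave 0 of 4, against 19.2% of the tested miRNAs with limma, 19.7% with edgeR and 17.1% with DESeq2 on recovered counts. Likewise 0 of 4 had groups without overlap, against 25.6% of the tested miRNAs.

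The data limit how large a change could have gone unseen. The 95% interval of the fold change, Sub-fertile over Fertile, ran from 0.770 to 1.42 for miR-200c-3p and from 0.742 to 1.57 for miR-141-3p. For the 5p strands it was wider, from 0.523 to 1.47 for miR-200c-5p and from 0.460 to 1.35 for miR-141-5p. The changes of the 3p strands were small beside those of other miRNAs: 92.7% of the tested miRNAs had an absolute log2 change at least as large as that of miR-200c-3p, and 84.6% one at least as large as that of miR-141-3p. Over all tested miRNAs the median was -0.10, and 0.02 with plain CPM. Relative to that median, miR-200c-3p stood at 0.16 and miR-141-3p at 0.20 under both scalings.

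The small positive change of the 3p strands rested on single libraries. Without Sub-fertile replicate 3, the log2 change was -0.10 for miR-200c-3p (limma adjusted p = 0.729) and -0.14 for miR-141-3p (adjusted p = 0.621). Without Fertile replicate 3, that of miR-200c-3p was -0.02 (adjusted p = 0.988). Without Sub-fertile replicate 1, it was 0.17 (adjusted p = 0.532) and 0.27 (adjusted p = 0.321).

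**Figure D2:**
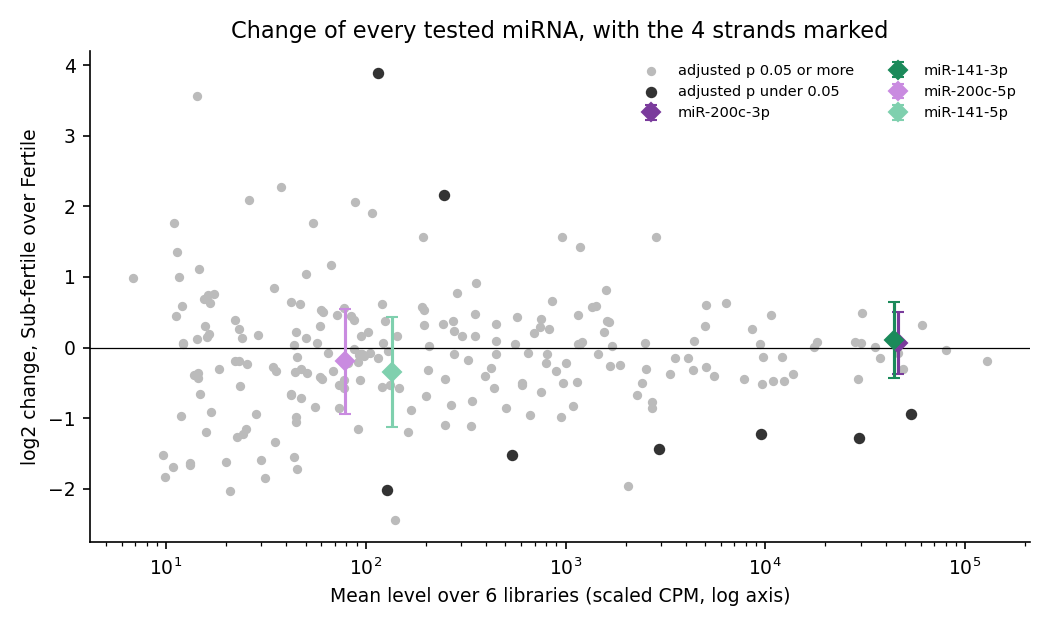
The log2 change, Sub-fertile over Fertile, of each of the 234 tested miRNAs against its mean level over 6 libraries (scaled CPM, log axis), with the 8 miRNAs past an adjusted p of 0.05 in black. Diamonds with limma 95% intervals mark the 4 strands, and every interval spans 0. The 3p strands lie at the abundant end at 0.06 and 0.11. The 5p strands lie at mean levels of 79.0 (miR-200c-5p, at -0.19) and 135.9 (miR-141-5p, at -0.34).

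Over the 6 libraries the 3p strands varied less than most miRNAs. The SD of log2 levels was 0.21 for miR-200c-3p and 0.30 for miR-141-3p, against a median of 0.56 over the tested miRNAs. Ordered from the least variable, they took places 20 and 41 of 234. Among the 22 miRNAs with a mean of at least 10000 scaled CPM, for which the median SD was 0.34, they took places 5 and 8. The spread was wider in Sub-fertile, with a coefficient of variation of 21.0% for miR-200c-3p and 32.1% for miR-141-3p, than in Fertile, with 9.63% and 10.7%. This difference in spread between 3 libraries and 3 was not tested.

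The strand balance lay far to the 3p side in both hairpins. miR-200c gave 593, 524 and 847 counts of its 3p strand per count of its 5p strand in Sub-fertile replicates 1 to 3, against 651, 465 and 507 in Fertile replicates 1 to 3. miR-141 gave 441, 265 and 487 in Sub-fertile replicates 1 to 3, against 355, 197 and 317 in Fertile replicates 1 to 3. In each library the ratio of miR-200c was above that of miR-141, so the 5p strand made up 0.174% ± 0.0347 of the miR-200c counts and 0.318% ± 0.111 of the miR-141 counts (SD, n = 6). Sub-fertile replicate 3 had the highest ratio of both hairpins and Fertile replicate 2 the lowest.

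Among the 57 hairpins with both strands tested, 23 favoured 3p and 34 favoured 5p by their mean log2 ratio over 6 libraries. The mean log2 ratio of 3p over 5p was 9.18 for miR-200c, which took place 1, and 8.35 for miR-141, which took place 4; miR-25 and miR-29c stood between them. The filter leaves out hairpins whose minor strand is rare, so that order covers the 57 alone. A further order took the 85 hairpins with a row for each strand and at least 1000 counts in all. By counts summed over the libraries, with 5p counts under 3 taken as 3, miR-200c was at place 11 and miR-141 at 17. Through that floor miR-128a (1743 counts of 3p and 0 of 5p) and miR-676 (1604 and 1) stood below miR-200c. Above both members stood hairpins such as miR-29a, with 89745 counts of 3p and 26 of 5p. miR-200c had 127922 and 212, and miR-141 had 123739 and 376.

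The strand ratios did not differ between the groups beyond their spread. The log2 of the 3p over 5p ratio (pseudocount 1) averaged 9.30 ± 0.36 in Sub-fertile and 9.05 ± 0.25 in Fertile for miR-200c (SD, n = 3 each). The difference was 0.26 (two-sided exact permutation p = 0.4; 0.8 adjusted over 4 ratios). For miR-141 it averaged 8.58 ± 0.47 in Sub-fertile and 8.12 ± 0.45 in Fertile (SD, n = 3 each), a difference of 0.45 (exact permutation p = 0.3; 0.8 adjusted). In a limma fit over all 57 hairpins the adjusted p was 0.590 for miR-200c and 0.566 for miR-141, where 7.02% of hairpins passed. The 95% interval of that fit ran from -0.40 to 0.91 for miR-200c and from -0.41 to 1.31 for miR-141.

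For miR-141 the ratio differed between libraries by more than counting error, also within each group. A chi-square test of its 3p and 5p counts gave an adjusted p of 2.9e-07 over all 6 libraries (12 such tests), 0.0174 within Sub-fertile and 0.00022 within Fertile. For miR-200c the same test over 6 libraries gave an adjusted p of 0.131, on 212 counts of the 5p strand in all. These tests compare the libraries as sequenced, not the conditions.

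**Figure D3:**
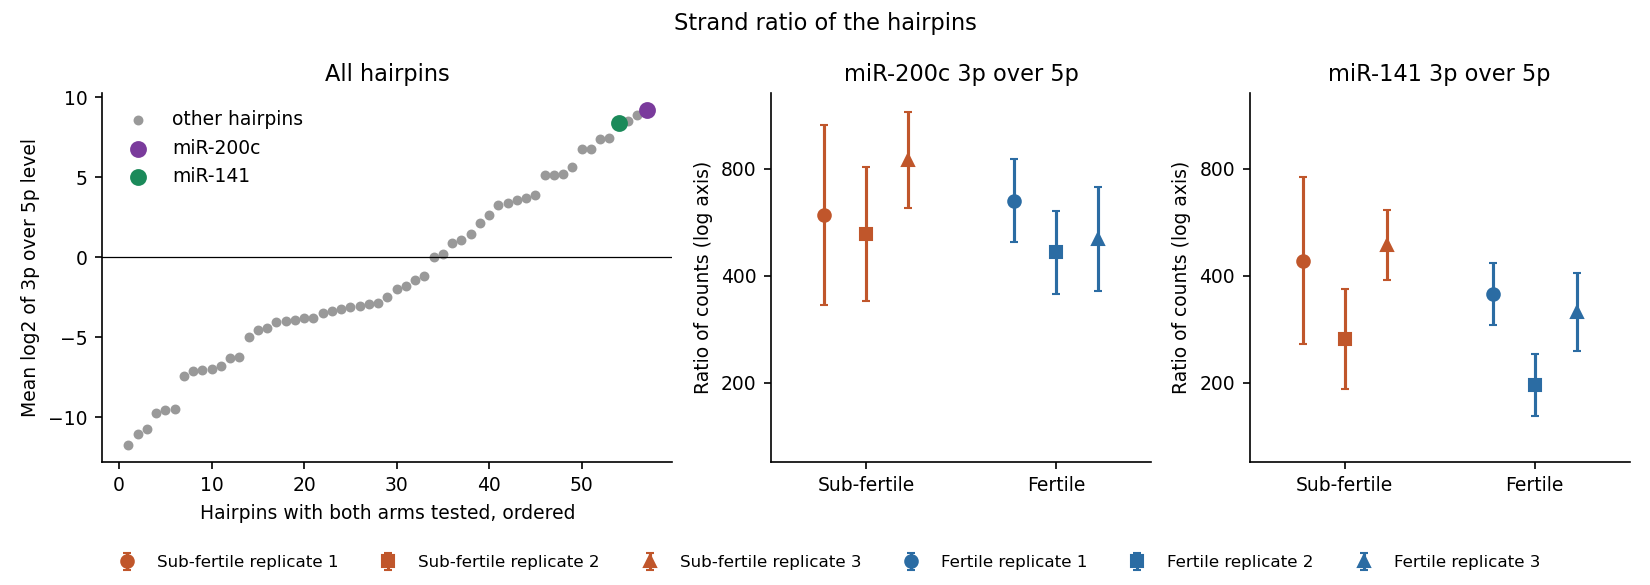
On the left, the mean log2 ratio of the 3p over the 5p level of the 57 hairpins with both strands tested, ordered from low to high, with miR-200c at 9.18 and miR-141 at 8.35 among the highest. In the middle and on the right, 3p counts per 5p count (log axis) in each library with Wilson 95% intervals, Sub-fertile left and Fertile right; in both hairpins the groups overlap, and Sub-fertile replicate 3 is highest and Fertile replicate 2 lowest.

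The strands of the locus were also set against each other, arm by arm. There were 1.14, 1.07 and 0.928 counts of miR-200c-3p per count of miR-141-3p in Sub-fertile replicates 1 to 3, against 1.04, 1.30 and 0.907 in Fertile replicates 1 to 3. Fertile replicate 2 held the largest excess of miR-200c-3p, and replicate 3 of each group held more miR-141-3p. The mean log2 of this ratio was 0.06 ± 0.15 in Sub-fertile and 0.10 ± 0.26 in Fertile (SD, n = 3 each), a difference of -0.04 (exact permutation p = 1). The ratio moved between libraries far beyond counting error, with a chi-square of 195 per degree of freedom over 6 libraries (adjusted p = 5.4e-208), of 78.9 within Sub-fertile and of 341 within Fertile. Libraries of the same group thus differed from each other, and the difference between the groups was smaller than that spread.

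For the 5p strands the order was reversed, with fewer counts of miR-200c-5p than of miR-141-5p in every library. The ratio was 0.846, 0.541 and 0.533 in Sub-fertile replicates 1 to 3, against 0.568, 0.552 and 0.567 in Fertile replicates 1 to 3. In 5 libraries it lay between 0.533 and 0.568, and the sixth, Sub-fertile replicate 1, had 11 counts against 13 and an interval of 0.387 to 1.85. No difference between libraries was detectable at this depth (chi-square 0.22 per degree of freedom, adjusted p = 0.992). The exact permutation p between the groups was 1, with a difference of 0.15 in log2 ratio.

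**Figure D4:**
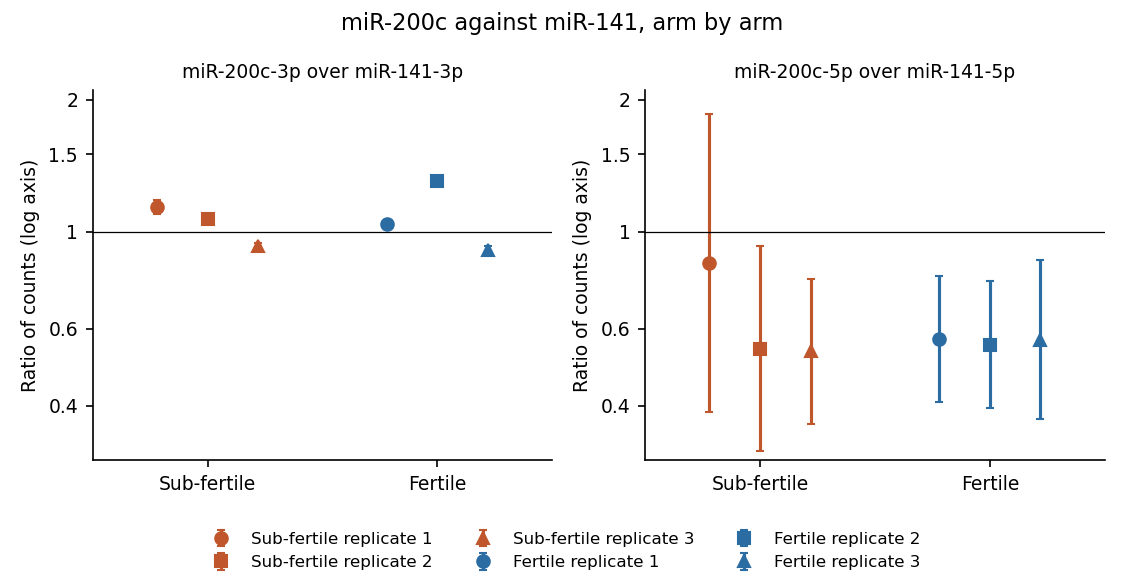
Counts of the miR-200c strand per count of the miR-141 strand (log axis, line at 1) for the 3p strands on the left and the 5p strands on the right, in Sub-fertile libraries left and Fertile libraries right of each panel. Bars are Wilson 95% intervals; the 3p ratios run from 0.907 to 1.30 with intervals hardly larger than their symbols, and the 5p ratios all lie below 1.

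Co-variation over the 6 libraries was examined for all 6 pairs of strands. For the 3p pair, Pearson's r of log2 levels was 0.77 (exact permutation p = 0.0889, 0.267 adjusted over 6 pairs) and Spearman's rho 0.43 (p = 0.419, 0.919 adjusted). Without the libraries farthest from the median of miR-200c-3p, Sub-fertile replicate 3 and Fertile replicate 3, r was 0.39 over 4 libraries. Without Sub-fertile replicate 3 alone it was -0.017, so the relation rests on that library. With 3 libraries a group, no value within groups is given.

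For the 5p pair, r was 0.81 (exact permutation p = 0.0764, 0.267 adjusted) and rho 0.94 (p = 0.0167, 0.1 adjusted), and r was 0.91 over 4 libraries without Sub-fertile replicate 1 and Fertile replicate 2. It did not pass the correction. For strands of the same hairpin, r was -0.06 for miR-200c (exact permutation p = 0.888, 0.894 adjusted) and 0.07 for miR-141 (p = 0.894, 0.894 adjusted).

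**Figure D5:**
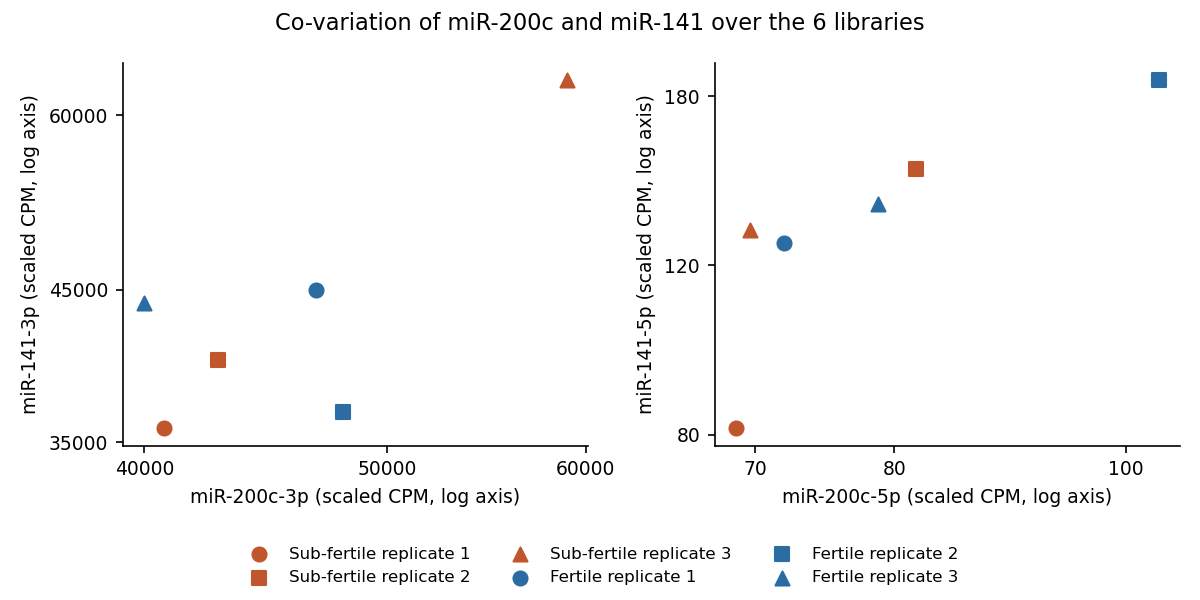
Level of the miR-141 strand against that of the miR-200c strand (scaled CPM, both axes log) for the 3p strands on the left and the 5p strands on the right, 1 point per library. On the left Sub-fertile replicate 3 lies apart from the other libraries and carries r = 0.77, and on the right the order of the libraries is nearly the same on both axes (rho 0.94).

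To place the 3p pair among all miRNAs, likeness was measured as Pearson's r of log2 levels over the same 6 libraries, as a description without a test. The libraries share their depth and scaling in every such value. Of 27261 pairs of tested miRNAs, 8.00% had an r at or above that of miR-200c-3p with miR-141-3p, and the median was 0.01. miR-141-3p was at place 11 of 233 in likeness to miR-200c-3p, and miR-200c-3p at place 21 in likeness to miR-141-3p.

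The 5 miRNAs most like miR-200c-3p were miR-152-3p (r = 0.93), miR-1911-3p (0.90), miR-222-3p (0.89), miR-509b-5p (0.88) and miR-148a-5p (0.87). Without Sub-fertile replicate 3 these r lay between 0.50 and 0.73. The 5 most like miR-141-3p were miR-508-3p (r = 0.98), miR-148a-3p (0.96), miR-374a-5p (0.92), miR-507-3p (0.89) and miR-151-5p (0.88). Without Sub-fertile replicate 3 the likeness to miR-508-3p was 0.99, and that to the other 4 lay between 0.65 and 0.79. miR-508-3p, of an X-linked miRNA family expressed in testis, stood at 6950, 8704 and 13302 scaled CPM in Sub-fertile replicates 1 to 3, against 9844, 7610 and 9750 in Fertile replicates 1 to 3. The order of the libraries was that of miR-141-3p.

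The other epithelial miRNAs were set beside the pair. Of 11 listed, 8 had a row and 7 passed the filter. In either direction 0 of 7 passed the test, where 3.42% of all tested miRNAs did, so 7 are too few to set the list apart. Their median log2 change was -0.13 against -0.10 over all tested miRNAs. Their summed level was 22211, 28465 and 32477 scaled CPM in Sub-fertile replicates 1 to 3, against 33040, 35047 and 34183 in Fertile replicates 1 to 3. Each Sub-fertile sum was thus below each Fertile sum, whereas the sums of the 3p pair overlapped. The epithelial sums came close, with 32477 in Sub-fertile replicate 3 and 33040 in Fertile replicate 1, and their difference was not tested. Of single tested miRNAs, 16.2% were lower in Sub-fertile without overlap. The pair made up 77.5%, 74.4% and 79.0% of pair and list together in Sub-fertile replicates 1 to 3, against 73.5%, 70.7% and 71.1% in Fertile replicates 1 to 3.

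The most abundant of the list was miR-205-5p, a miRNA of basal and stratified epithelia, at 11934 ± 4355 scaled CPM in Sub-fertile and 12394 ± 622 in Fertile (SD, n = 3 each). It was lowest in Sub-fertile replicate 1, at 7056, and highest in Sub-fertile replicate 3, at 15430, as was miR-141-3p. In the miR-183/96/182 cluster of sensory and secretory epithelia, the log2 change was -0.52 for miR-182-5p (SE 0.17, limma adjusted p = 0.119), -0.40 for miR-183-5p (SE 0.18, adjusted p = 0.276) and 0.47 for miR-96-5p (SE 0.24, adjusted p = 0.334). miR-375-3p, known from endocrine and secretory cells, had -0.77 (SE 0.30, adjusted p = 0.203). In these 4 the groups did not overlap, against 25.6% of the tested miRNAs. Of the 4, 3 were lower in Sub-fertile (16.2% of the tested miRNAs were) and miR-96-5p was higher (9.40% were). The others were miR-31-5p with 0.33 (SE 0.26, adjusted p = 0.518) and miR-194-5p, an intestinal and hepatic miRNA, with 0.61 (SE 0.58, adjusted p = 0.601). miR-215-5p had at most 4 counts in a library and was not tested.

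Markers of other cell types were far below the pair, which summed to between 76557 and 122490 scaled CPM in Sub-fertile and between 84039 and 91827 in Fertile libraries. Leukocyte miRNAs (8 of 8 with a row) summed to between 1483 and 1873 in Sub-fertile and between 1076 and 1379 in Fertile libraries. Stromal and smooth muscle miRNAs (7 of 8) summed to between 1711 and 2126 in Sub-fertile and between 2610 and 3415 in Fertile; most of this was miR-140-3p, and miR-145-5p, miR-145-3p and miR-214-3p were at 0 in all libraries. Germ cell and ciliated cell miRNAs (7 of 8) summed to between 11866 and 22861 in Sub-fertile and between 9652 and 11674 in Fertile libraries. miR-508-3p was the highest of them by mean level, but the upper end of 22861 came from Sub-fertile replicate 1, where miR-34c-5p stood at 11502, miR-449a-5p at 3909 and miR-508-3p at 6950. Striated muscle miRNAs (4 of 4) summed to between 181 and 268 in Sub-fertile and between 11.6 and 60.0 in Fertile, led by miR-206-3p, with miR-133a-3p and miR-133b-3p at 0. Erythroid and platelet miRNAs (4 of 5) summed to at most 20.4 in Sub-fertile and 37.1 in Fertile, led by miR-486-5p, with both strands of miR-144 at 0. The leukocyte, germ cell and muscle sums were higher and the stromal sums lower in every Sub-fertile library than in every Fertile one. Of single tested miRNAs, 9.40% were higher and 16.2% lower without overlap. The germ cell sums were close, with 11866 in the lowest Sub-fertile and 11674 in the highest Fertile library. They leave out miR-509, listed as miR-509-3p, a name without a row. Rows named miR-509a-3p, miR-509b-3p and miR-509c-3p were present (log2 changes -0.30, -0.38 and -0.10) but were not summed. miR-509b-3p averaged 12393 scaled CPM in Sub-fertile and 15268 in Fertile, above miR-508-3p. The direction of the germ cell sums thus holds for the listed names only. These sums were not tested, and the members of a list did not all go the way of its sum. The calls within the lists stand beside 3.42% of all 234 tested miRNAs that passed, and the lists are short. Of 8 leukocyte miRNAs tested, 1 passed, miR-146a-5p (log2 change 2.15, limma adjusted p = 0.0108). The others had 1.56 for miR-223-3p, 1.17 for miR-142-3p, 0.45 for miR-155-5p, 0.16 for miR-342-3p, 0.11 for miR-142-5p, -0.56 for miR-150-5p and -0.28 for miR-146b-5p. Of 3 stromal miRNAs tested, 0 passed: miR-140-3p had a log2 change of -0.67, miR-199a-3p of 0.16 and miR-143-3p, with 9, 3 and 8 counts in Sub-fertile replicates 1 to 3 against 1, 1 and 0 in Fertile replicates 1 to 3, was higher in each Sub-fertile library than in each Fertile one. Of 6 germ cell and ciliated cell miRNAs tested, 0 passed. The log2 change was 2.06 for miR-34b-5p, 1.57 for miR-34c-5p and 1.43 for miR-449a-5p. It was 0.05 for miR-508-3p, -0.69 for miR-506-3p and -0.21 for miR-507-3p. Of 2 striated muscle miRNAs tested, 1 passed, miR-206-3p (log2 change 3.89, adjusted p = 0.00617). The part of these cell types in the levels of the pair was not tested.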

How the data were processed

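Small RNA of 3 Sub-fertile and 3 Fertile vesicle preparations was sequenced. Per the labels' protocols, size exclusion chromatography after ultracentrifugation gave the vesicles, Trizol and a column the RNA, and a QIAseq miRNA kit served for library preparation. The submitters' processing notes name bcl2fastq, Bowtie2 2.2.2, DESeq2 and the build OryCun2.0, with no role or order. The sources used here do not say how reads were assigned among related miRNAs, or whether molecular identifiers were used, so counting intervals cover counting error only. The authors deposited, under the name CPM, a normalized signal for each miRNA in each library. Dividing a column by its smallest non-zero entry gave whole numbers (100% of values within 1e-06), which were used as recovered counts. The implied scaling factors, 0.902 to 1.24, equal edgeR's TMM factors on those counts, so the deposited signal is taken as TMM-scaled CPM, as inferred from the values. One count was worth 1.33 to 6.24 units.

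R 4.3.3 with limma 3.58.1 tested log2(signal + 1) with an empirical Bayes trend, two-sided, over 234 miRNAs at 10 or more in at least 3 libraries, with Benjamini-Hochberg adjustment at 0.05. Ratios and shares were compared by exact permutation (scipy 1.17.1). edgeR 4.0.16 on the recovered counts called 8 miRNAs, as did limma, and DESeq2 1.42.0 called 17. The scripts were tested on simulated data. No library was a copy of another (lowest chi-square per degree of freedom 20.3). Groups and numbers came from the labels. P-values are set against the spread between these libraries, except those of the chi-square tests, which are set against counting error only.

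The members and lists were chosen with earlier results of these data known. The miRNAs named by plan are the 4 members, the epithelial list, the 5 most like each 3p strand and the highest of each other list. Named after their values were seen were miR-29a, miR-25, miR-29c, miR-128a, miR-676 and the miR-509 3p strands. The same holds for miRNAs at 0 and further members of the other lists. A planned rule by shared seed was not used here. Alternatives were other pseudocounts, filters, scalings and limma settings, count tests, a replicate block and leaving out each library; plain CPM and the values without Sub-fertile replicate 3 for likeness were added after seeing the data.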

Additional observations from a re-analysis of the deposited data

How the results depend on the processing

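No member passed an adjusted p of 0.05 under any of the settings run. Leaving out 1 library moved the log2 change of miR-200c-3p between -0.10 and 0.17, of miR-141-3p between -0.14 and 0.27, of miR-200c-5p between -0.30 and -0.04 and of miR-141-5p between -0.53 and -0.08. Both 3p strands changed sign without Sub-fertile replicate 3, and miR-200c-3p also without Fertile replicate 3 (-0.02). Over all settings the limma, edgeR or DESeq2 adjusted p was 0.204 to 0.988 for miR-200c-3p, 0.321 to 0.973 for miR-141-3p, 0.707 to 0.973 for miR-200c-5p and 0.511 to 0.931 for miR-141-5p. The lowest for miR-200c-3p came with quantile normalization, at a log2 change of 0.24, where its unadjusted p, unlike that of the other members, was under 0.05. At a filter of 100, miR-200c-5p was not tested. The 3p over 5p ratio kept its sign without any 1 library (0.06 to 0.40 for miR-200c, 0.20 to 0.72 for miR-141), as did the share of the 3p pair (0.58 to 1.92 percentage points). The miR-200c-3p over miR-141-3p ratio ran from -0.16 to 0.10, changing sign without Sub-fertile replicate 3 (0.04) or Fertile replicate 2 (0.10), and the r of the 3p pair from -0.017 to 0.91.

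Over all 234 miRNAs the 8 calls (2 higher, 6 lower) became 14 at a filter of 100, 5 with quantile normalization (3 higher, 2 lower), 1 without a trend, 45 with array weights (15 higher, 30 lower) and 17 with DESeq2 (10 higher, 7 lower), and 3 to 39 with 1 library left out. At the filter of 100 fewer miRNAs were tested (131); for the others the cause was not tested. With the replicate number as a block, 0 passed in limma (43 at an unadjusted p under 0.05), and the members had the log2 changes of the fit without a block, 0.06, 0.11, -0.19 and -0.34 for miR-200c-3p, miR-141-3p, miR-200c-5p and miR-141-5p. Deviations of libraries with the same number correlated at 0.05, -0.12 and 0.10. These values gave no sign of pairing by number, but 3 libraries a group are too few to settle it. With the block, the ratios and the share had the same differences, 0.26 and 0.45 for the strand ratios, -0.04 for the 3p pair and 1.29 percentage points for the share. Depth limits the 5p strands most, since 1 count of Sub-fertile replicate 1 was worth 6.24 scaled CPM.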
